A study of Homo sapiens with 6 samples.

Results

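The 10 genes described here are a set named for adherens junctions and desmosomes, which hold epithelial cells together. The set holds the classical cadherins CDH1, CDH2 and CDH3, the desmosomal cadherins DSG2 and DSC2, the plaque proteins JUP, PKP2 and PKP3, and the plakin DSP. EPCAM, an epithelial cell adhesion molecule, is counted with them but is not a cadherin, plaque protein or plakin. All 10 are called junction genes below. The 10 genes were taken by gene symbol from the deposited table, and all 10 were found among its 19960 genes. The cells were MKN28, an established human gastric adenocarcinoma line that cell line registers list as a derivative of another gastric line, MKN74. Stable cells expressing a plasmid labelled shLTBP1, a short hairpin name for LTBP1 knockdown (3 libraries), were set against stable cells expressing a control plasmid labelled shSCR (3 libraries), both grown in RPMI medium with serum and antibiotics. LTBP1 encodes a protein of the extracellular matrix that holds latent TGF-beta, and TGF-beta is a known regulator of epithelial junctions. The labels name 1 plasmid per group, do not say whether the stable cells are a pool or 1 clone, and give no sign of whether the 3 libraries were grown as separate cultures, so p-values here reflect library-to-library spread that could be purely technical.

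In an adherens junction, classical cadherins of neighbouring cells bind each other outside the cell, and their tails hold catenins that link them to actin. In a desmosome, desmogleins and desmocollins take the place of classical cadherins, plakoglobin (JUP) and plakophilins (PKP) bind their tails, and desmoplakin (DSP) ties the plaque to keratin filaments. Loss of CDH1, with gain of CDH2, is the textbook sign of an epithelial to mesenchymal transition, and CDH1 is a known tumour suppressor gene of the stomach. EPCAM is a homophilic adhesion protein of simple epithelia.

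Promoter sequences were available in the RefSeq table (GRCh38.p14) for 5 of the 10 genes, CDH2, DSC2, DSG2, DSP and JUP. The windows of 250 bases before to 50 after a transcription start are shown for the 4 of these that were expressed. Each of the 4 has a window with the E-box letters that the SNAI and ZEB repressors of CDH1 are known to bind. Capitals mark CACCTG or its reverse complement CAGGTG, the only motif searched, on both strands. For DSC2 and JUP, which have a second start in the table without these letters, the start with a match is shown. The table holds 8 windows for the 5 genes, of which 4 have a match; both CDH2 windows have none.
DSG2, chr18:31497927-31498226, plus strand: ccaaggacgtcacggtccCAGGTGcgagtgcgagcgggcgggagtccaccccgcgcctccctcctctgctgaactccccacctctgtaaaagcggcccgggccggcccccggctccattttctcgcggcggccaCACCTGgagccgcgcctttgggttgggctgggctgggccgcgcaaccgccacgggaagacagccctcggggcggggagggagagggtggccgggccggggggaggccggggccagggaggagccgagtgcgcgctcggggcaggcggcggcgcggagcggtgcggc
DSC2, chr18:31102372-31102671, minus strand: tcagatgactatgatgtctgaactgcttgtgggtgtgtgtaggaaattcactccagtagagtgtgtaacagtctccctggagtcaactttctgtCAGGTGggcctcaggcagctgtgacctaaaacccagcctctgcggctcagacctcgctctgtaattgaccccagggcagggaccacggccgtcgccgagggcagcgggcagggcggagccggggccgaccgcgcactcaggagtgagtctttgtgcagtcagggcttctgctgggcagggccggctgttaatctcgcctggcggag
DSP, chr6:7541421-7541720, plus strand: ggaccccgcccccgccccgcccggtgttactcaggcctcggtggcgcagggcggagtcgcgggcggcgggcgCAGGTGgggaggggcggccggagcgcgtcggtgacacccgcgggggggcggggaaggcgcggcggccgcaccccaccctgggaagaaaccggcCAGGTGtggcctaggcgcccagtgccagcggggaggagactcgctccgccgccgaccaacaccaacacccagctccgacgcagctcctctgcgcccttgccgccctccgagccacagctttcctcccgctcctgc
JUP, chr17:41785927-41786226, minus strand: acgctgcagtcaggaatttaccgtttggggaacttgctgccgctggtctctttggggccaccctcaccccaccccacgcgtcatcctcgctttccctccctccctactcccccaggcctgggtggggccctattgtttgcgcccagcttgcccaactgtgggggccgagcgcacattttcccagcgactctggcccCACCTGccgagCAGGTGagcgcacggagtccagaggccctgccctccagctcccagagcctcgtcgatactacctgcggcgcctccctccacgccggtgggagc
The letters occurred at -232 and -116 from the start in DSG2, at -156 in DSC2, at -178 and -85 in DSP and at -54 and -43 in JUP, where the base before the start is -1. Among 35116 human promoter windows of this length, 20.6% held at least 1 match and 3.49% held 2 or more, shares that cannot be set against windows shown because they hold a match. The DSG2, DSP and JUP windows shown each held 2 matches, and the DSC2 window shown held 1. The other JUP window and the other DSC2 window held 0. Windows picked for a match cannot be set against the direction of RNA change, and no such relation was tested. A match of letters is a description and not a binding site.

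The values are read counts per gene that the authors normalized with DESeq2, with library totals between 30479879 and 30941103, so the totals no longer show sequencing depth. LTBP1 was at 5.92% of its control level in the knockdown (log2 fold change -4.07 ± 0.12 SE, limma adjusted p = 1.18e-08). It lies on chromosome 2, where its nearest tested genes had a median of -0.58. With that median subtracted in each library, LTBP1 was at -3.48 (limma adjusted p = 2.13e-08). Testing kept the 12789 genes whose mean value reached 10, and 53.1% of these passed (limma adjusted p under 0.05), 26.3% higher and 26.8% lower in shLTBP1, with a median log2 fold change over all tested genes of 0.00, so a pass in this comparison is common. All 10 epithelial markers were expressed and summed to between 324401 and 350849 in shLTBP1 and between 346512 and 366516 in shSCR. Of the markers of other cell types, 7 of 9 for fibroblasts, 6 of 7 for endothelium and 5 of 8 for blood stayed below 10 in every library; THY1 and CLDN5 were listed at 0 throughout. The fibroblast markers summed to between 706 and 931 in shLTBP1 and between 1095 and 1342 in shSCR, almost all of it COL1A1, and LUM read 36.6 to 52.0 in shLTBP1 but was listed at 0 in shSCR. The endothelial markers summed to 24.2 to 33.01 in shLTBP1 and 35.6 to 52.1 in shSCR. The blood markers summed to 29.1 to 32.2 in shLTBP1 and 10.6 to 949 in shSCR, because HBA1 and HBB stood at 803 and 132 in shSCR replicate 3 alone; their part in the results was not tested, and without that library the log2 fold changes of the junction genes kept their sign and their side of the threshold.

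Of the 10 junction genes, 9 had a mean of at least 10 and were tested. PKP2 and EPCAM fell by more than 2-fold in shLTBP1 cells, CDH1, DSG2 and DSC2 fell slightly, JUP and PKP3 rose slightly, and CDH3 and DSP did not pass. CDH2 was not expressed at a testable level in either group. The 7 calls stand beside the 53.1% of all genes that passed, the 5 lower ones beside 26.8%, and the pair past 2-fold, both lower, beside 8.92% of all tested genes past 2-fold in either direction and 4.39% lower by that much. The median log2 fold change of the 9 genes was -0.26. The 7 genes whose libraries did not overlap between the groups are the 7 that passed; 60.8% of all tested genes did not overlap. The smallest p that an exact permutation test of 3 against 3 libraries can give is 0.1, so the calls rest on limma, which pools the spread across genes.

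**Figure D1:**
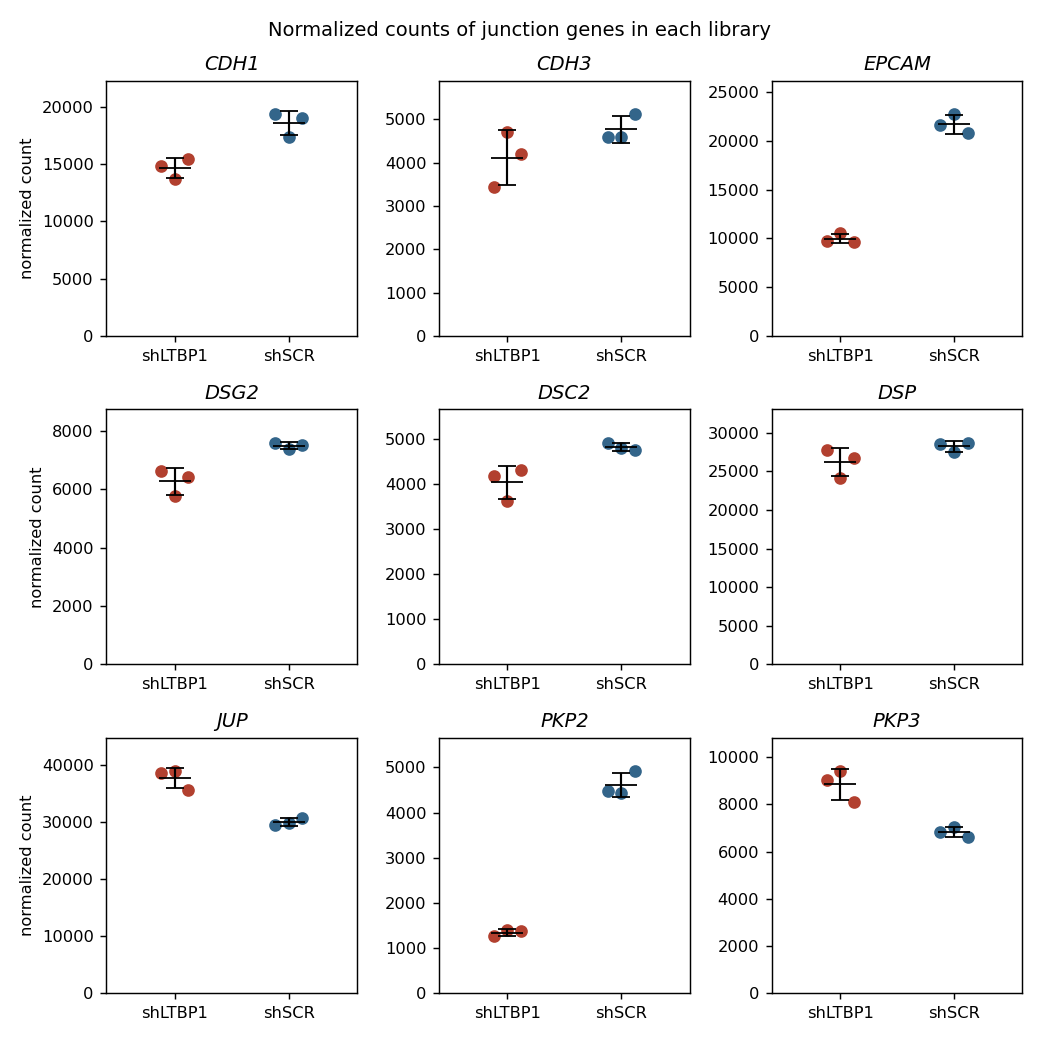
Normalized counts of the 9 expressed junction genes in each library (points, vertical axis from 0), shLTBP1 left and shSCR right, with the mean and SD of 3 libraries. PKP2 and EPCAM are far apart between the groups, JUP and PKP3 are higher in shLTBP1, and CDH3 and DSP overlap.

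CDH1 encodes E-cadherin, the main cadherin of epithelial adherens junctions, and lies on the plus strand of chromosome 16 from 68737225 to 68835548 (hg38, GENCODE 29). Its normalized count was 14796, 13711 and 15423 in the shLTBP1 libraries, against 19326, 17375 and 19041 in the shSCR libraries. Every shLTBP1 library lay below every shSCR library. In RNA from whole cultures, as here, fewer cells that express a gene and less of its RNA per cell cannot be told apart. CDH1 averaged 14643 ± 866 in shLTBP1 and 18581 ± 1054 in shSCR (SD, n = 3 each), or 78.8% of the control level (log2 fold change -0.34, 95% interval -0.47 to -0.21, limma adjusted p = 0.00072). An unnamed antisense gene overlaps 9197 bases of CDH1, and the strand setting of the counting is not given in the sources used here.

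CDH3, the gene of P-cadherin, lies upstream of CDH1 on the same strand with a gap of 14.6 kb. It read 3446, 4711 and 4197 in shLTBP1 and 4594, 4586 and 5115 in shSCR. The groups overlapped, since shLTBP1 replicate 2 was above 2 of the control libraries, and the spread among shLTBP1 libraries was wide (15.5% of the mean, against 6.36% in shSCR). Its log2 fold change was -0.22 (95% interval -0.44 to 0.00, limma adjusted p = 0.0895), and without shLTBP1 replicate 2 it was -0.32 (limma adjusted p = 0.012). The log2 ratio of CDH1 to CDH3 within a library was 2.10, 1.54 and 1.88 in shLTBP1 and 2.07, 1.92 and 1.90 in shSCR, a difference of -0.12 ± 0.17 (SE; exact two-sided permutation p = 0.6). Without shLTBP1 replicate 2 that difference was 0.03, so its sign rests on 1 library. The genes that flank the pair did not share one direction: ZFP90, before CDH3, was lower (log2 fold change -0.22, limma adjusted p = 0.0481), whereas TANGO6, after CDH1, was at 0.20 (limma adjusted p = 0.126).

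CDH2, the gene of N-cadherin, read 0.94 in shLTBP1 replicate 1 and 1.86 in shSCR replicate 1 and was listed at 0 in the other 4 libraries. No ratio of CDH1 to CDH2 was therefore computed. CDH2 was thus at or near 0 in both groups, and no change in it could be measured.

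EPCAM was the second of the genes to fall by more than 2-fold. It read 9752, 10516 and 9673 in shLTBP1, against 21565, 22703 and 20770 in shSCR, and the groups were far apart. EPCAM averaged 9981 ± 466 in shLTBP1 and 21679 ± 972 in shSCR (SD, n = 3 each), 46.0% of the control level (log2 fold change -1.12, 95% interval -1.23 to -1.01, limma adjusted p = 1.39e-07). EPCAM lies on the plus strand of chromosome 2 from 47345158 to 47387601, and tested genes of that chromosome had a median log2 fold change of -0.56, with 88.8% of them below 0. Of the 50 nearest tested genes, 42 were called lower and 1 higher, and their median was -0.54. CALM2, a calmodulin gene next to it, was at -0.46 (limma adjusted p = 0.000372). After subtraction of that neighbour median, library by library, EPCAM was at -0.55 ± 0.06 (SE, limma adjusted p = 3.48e-05). Only 6 of the 50 neighbours fell further than EPCAM.

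Genes of proteins that bind EPCAM or inhibit the proteases that cut it were also measured. SPINT1, an inhibitor of the membrane protease matriptase, averaged 17146 ± 744 in shLTBP1 and 14474 ± 239 in shSCR (SD, n = 3 each), a rise of 0.24 on the log2 scale (limma adjusted p = 0.00116). CLDN7, a claudin that binds EPCAM directly, averaged 10546 ± 676 in shLTBP1 and 10407 ± 186 in shSCR and did not pass (log2 fold change 0.02, limma adjusted p = 0.798).

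**Figure D2:**
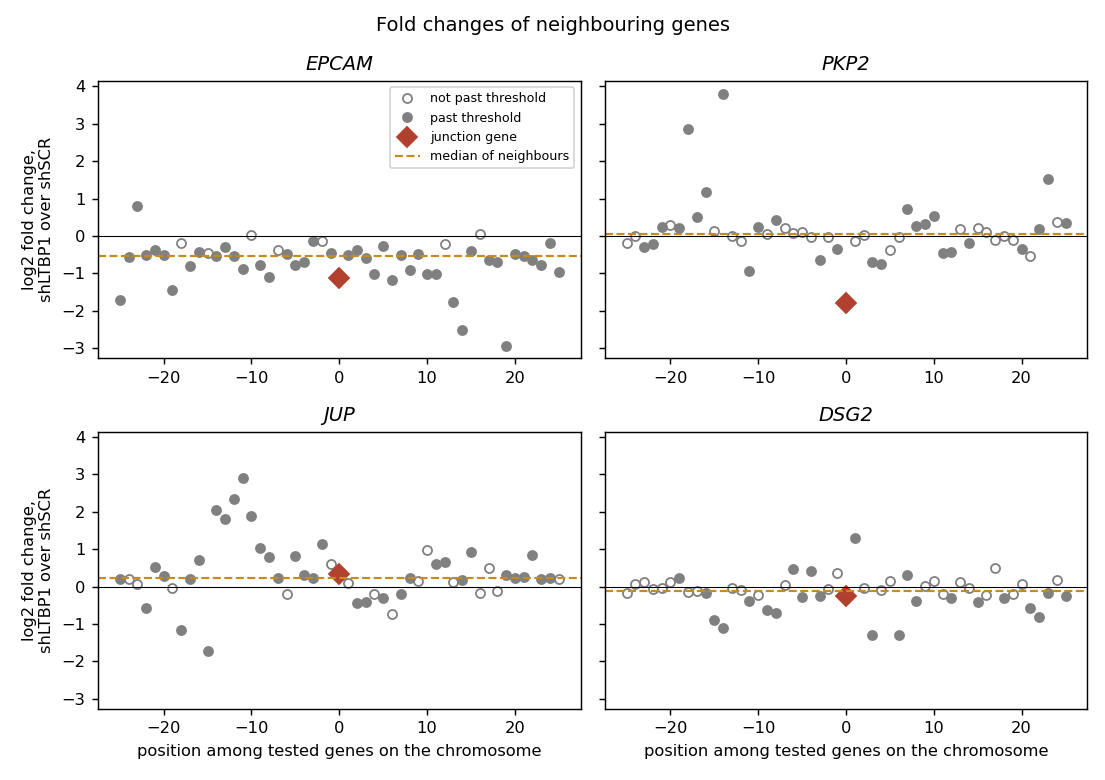
Log2 fold change (shLTBP1 over shSCR) of the nearest tested genes on each side of EPCAM, PKP2, JUP and DSG2, by their order on the chromosome; the diamond is the junction gene, filled circles passed the threshold and the dashed line is the neighbours' median. EPCAM and most of its neighbours lie below 0, PKP2 lies below all of its neighbours, and JUP and DSG2 lie near the level of theirs.

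The desmosomal cadherins DSG2 and DSC2 were lower to the same extent. DSG2, a desmoglein that simple epithelia make, read 6620, 5746 and 6421 in shLTBP1, against 7584, 7366 and 7516 in shSCR (log2 fold change -0.26 ± 0.06 SE, limma adjusted p = 0.00329). DSC2, a widely expressed desmocollin, read 4186, 3635 and 4317 in shLTBP1, against 4926, 4802 and 4764 in shSCR (-0.26 ± 0.06 SE, limma adjusted p = 0.00725). Neither gene's groups overlapped, and in both shLTBP1 replicate 2 was the lowest library. Their log2 ratio was 0.66, 0.66 and 0.57 in shLTBP1 and 0.62, 0.62 and 0.66 in shSCR, a difference of -0.00096 ± 0.03 (SE; exact two-sided permutation p = 1), with a sign that turns when single libraries are left out. As a share of their summed level per kilobase, DSG2 made up 76.6 ± 0.64% in shLTBP1 and 76.6 ± 0.27% in shSCR (SD, n = 3 each). The size of that share depends on the longest coding transcripts used, 5831 bases for DSG2 and 12325 for DSC2. Without the length correction, DSG2 and DSC2 averaged 6262 and 4046 in shLTBP1 and 7489 and 4831 in shSCR.

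Both genes lie in a run of 7 desmosomal cadherin genes over 559 kb of chromosome 18, from 30990008 to 31549008 in hg38, on opposite strands. The other 5 were scarce: DSC1 and DSG1 averaged 26.9 and 73.8 in shLTBP1, against 27.9 and 55.4 in shSCR, and did not pass (limma adjusted p = 0.883 and 0.266), while DSC3, DSG3 and DSG4 were below the minimum mean. DSG2 and DSC2 thus supplied nearly all desmosomal cadherin RNA in both groups. Among the 50 tested neighbours of DSG2, 18 were called lower and 5 higher, with a median of -0.11. With the neighbours' median subtracted, DSG2 was at -0.13 and DSC2 at -0.12, and neither passed (limma adjusted p = 0.0582 and 0.0868). DSG2-AS1, an antisense gene, overlaps 6863 bases of DSG2 and was not analysed here.

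PKP2 showed the largest fall of the 10 genes. PKP2 encodes a plakophilin of simple epithelia and heart and lies on the minus strand of chromosome 12 from 32790745 to 32896840. It read 1252, 1389 and 1375 in shLTBP1, against 4469, 4443 and 4917 in shSCR. PKP2 averaged 1339 ± 75.5 in shLTBP1 and 4609 ± 266 in shSCR (SD, n = 3 each), 29.04% of the control level, and the spread within a group was small beside the gap (log2 fold change -1.78, 95% interval -1.92 to -1.64, limma adjusted p = 2.92e-08). It was the 144th lowest of the 6341 tested genes below 0. None of its 50 nearest tested neighbours fell as far, their median was 0.04, and after its subtraction PKP2 stood at -1.83 (limma adjusted p = 2.96e-08). The next gene, YARS2, was lower by a smaller amount (-0.34, limma adjusted p = 0.00905).

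PKP3, a plakophilin of stratified and simple epithelia on chromosome 11, moved in the opposite direction. It read 9030, 9407 and 8097 in shLTBP1, against 6830, 7047 and 6598 in shSCR, a rise to 129.6% of the control level (log2 fold change 0.37 ± 0.06 SE, limma adjusted p = 0.000522). Its 34 tested neighbours, fewer because it lies close to the chromosome end, had a median of 0.17, and with that median subtracted PKP3 was at 0.21 (limma adjusted p = 0.00738).

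The plakophilin make-up of the cells therefore differed between the groups. The log2 ratio of PKP2 to PKP3 was -2.85, -2.76 and -2.56 in shLTBP1, against -0.61, -0.67 and -0.42 in shSCR (difference -2.15 ± 0.11 SE, exact two-sided permutation p = 0.1, the smallest possible). Per kilobase of transcript, PKP2 supplied 9.03 ± 0.87% of the PKP2 and PKP3 RNA in shLTBP1 and 30.6 ± 1.88% in shSCR (SD, n = 3 each). With merged exon length instead, the share was 7.55 ± 0.74% and 26.6 ± 1.73%. The summed level of PKP2 and PKP3 per kilobase was 3506, 3672 and 3202 in shLTBP1 and 3470, 3542 and 3492 in shSCR. Per kilobase of merged exons the sum was 2562, 2681 and 2333 in shLTBP1 and 2438, 2492 and 2440 in shSCR. By either length the groups overlapped. As normalized counts without the length correction, the sum was 10282, 10796 and 9472 in shLTBP1 and 11298, 11490 and 11515 in shSCR, where they did not. PKP1 and PKP4, the other plakophilin genes, added little PKP1 (34.2 ± 1.40 per kilobase in shLTBP1 and 41.1 ± 3.44 in shSCR) and a moderate amount of PKP4 (424 ± 16.1 and 609.6 ± 6.12). PKP4 fell by 0.52 on the log2 scale, but lies on chromosome 2 and was at 0.03 with its neighbours' median subtracted (limma adjusted p = 0.642).

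JUP encodes plakoglobin, the one protein that sits in both kinds of junction, and it rose. It read 38563, 38877 and 35605 in shLTBP1, against 29405, 29833 and 30735 in shSCR, 125.6% of the control level (log2 fold change 0.33, 95% interval 0.23 to 0.43, limma adjusted p = 0.000221). Every shLTBP1 library was above every shSCR library. JUP lies on the minus strand of chromosome 17 from 41754604 to 41786931, near keratin genes, and 28 of its 50 tested neighbours were called higher and 7 lower (median 0.23); 13 of the 50 are keratin genes. With the neighbours' median subtracted JUP was at 0.08 and did not pass (limma adjusted p = 0.178). When keratin genes were left out of the neighbours, an alternative chosen after the data were seen, it was at 0.13 (limma adjusted p = 0.0483). The genes on either side, HAP1 and P3H4, did not pass (0.60 and 0.10, limma adjusted p = 0.0636 and 0.278).

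JUP and its close relative CTNNB1, which encodes beta-catenin, moved apart. CTNNB1 read 11433, 11463 and 12291 in shLTBP1, against 15396, 14563 and 16141 in shSCR (log2 fold change -0.39 ± 0.05 SE, limma adjusted p = 0.000142). The linear ratio of JUP to CTNNB1 was 3.37, 3.39 and 2.90 in shLTBP1 and 1.91, 2.05 and 1.90 in shSCR. On the log2 scale the difference was 0.72 ± 0.08 (SE; exact two-sided permutation p = 0.1, the smallest possible). The ratio was not corrected for neighbouring genes. With the neighbours' median subtracted, JUP was at 0.08 (limma adjusted p = 0.178) and CTNNB1 at -0.28 (limma adjusted p = 0.00355).

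DSP, the gene of desmoplakin, did not pass. It read 27732, 24186 and 26669 in shLTBP1 and 28551, 27445 and 28690 in shSCR, and the groups overlapped (log2 fold change -0.11, 95% interval -0.23 to 0.01, limma adjusted p = 0.112). Without shLTBP1 replicate 1 it was at -0.15 (limma adjusted p = 0.0499). The log2 ratio of DSP to JUP was -0.48, -0.68 and -0.42 in shLTBP1, against -0.04, -0.12 and -0.10 in shSCR, so there was less desmoplakin RNA for each unit of plakoglobin RNA in every shLTBP1 library (difference -0.44 ± 0.08 SE, exact two-sided permutation p = 0.1, the smallest possible). With the neighbours' median subtracted, DSP was at -0.10 and JUP at 0.08, and neither passed (limma adjusted p = 0.217 and 0.178).

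**Figure D3:**
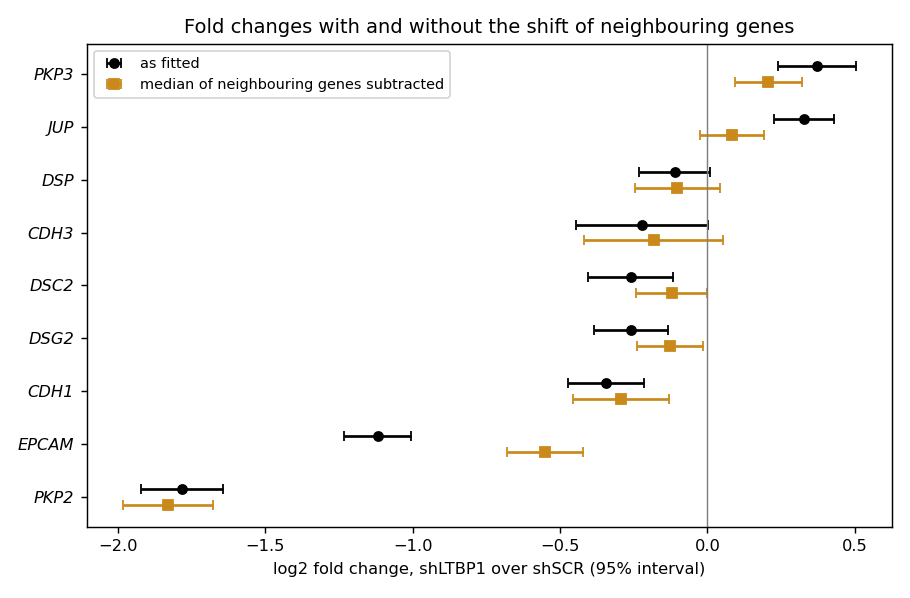
Log2 fold change (shLTBP1 over shSCR) and 95% interval of the 9 tested junction genes, as fitted (circles) and with the median of neighbouring genes subtracted in each library (squares). PKP2 stays at -1.78 and -1.83, EPCAM moves to -0.55, and the intervals of CDH3, DSP and, with neighbours subtracted, JUP include 0.

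Levels of different genes were compared per kilobase of the longest coding transcript. In shLTBP1 cells JUP stood highest at 10776 ± 516, followed by EPCAM (5789 ± 270.1), PKP3 (3149 ± 240.2), CDH1 (2995 ± 177), DSP (2674 ± 186), DSG2 (1074 ± 78.6), CDH3 (835 ± 129), DSC2 (328 ± 29.4) and PKP2 (311 ± 17.5). In shSCR cells EPCAM stood highest at 12575 ± 564 per kilobase, followed by JUP (8576 ± 194), CDH1 (3800.5 ± 216), DSP (2882 ± 69.6), PKP3 (2430 ± 79.95), DSG2 (1284 ± 19.1), PKP2 (1071 ± 61.9), CDH3 (967 ± 61.5) and DSC2 (392 ± 6.86), all as mean ± SD of 3 libraries. CDH2 came last in both groups. EPCAM and JUP thus stand in opposite order in the groups, and PKP2 stands below DSC2 only in the shLTBP1 order, where their libraries overlap. In shLTBP1 the libraries of PKP3 and CDH1, and those of CDH1 and DSP, also overlapped, as did those of PKP2 and CDH3 in shSCR; all other neighbours in these orders were apart. With merged exon length instead, the shLTBP1 order after EPCAM was DSP, CDH1 and PKP3, and CDH3 stood above PKP2 in shSCR. PKP2 moved most with the choice of length, to 190.1 per kilobase of merged exons in shLTBP1 and 654 in shSCR.

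**Figure D4:**
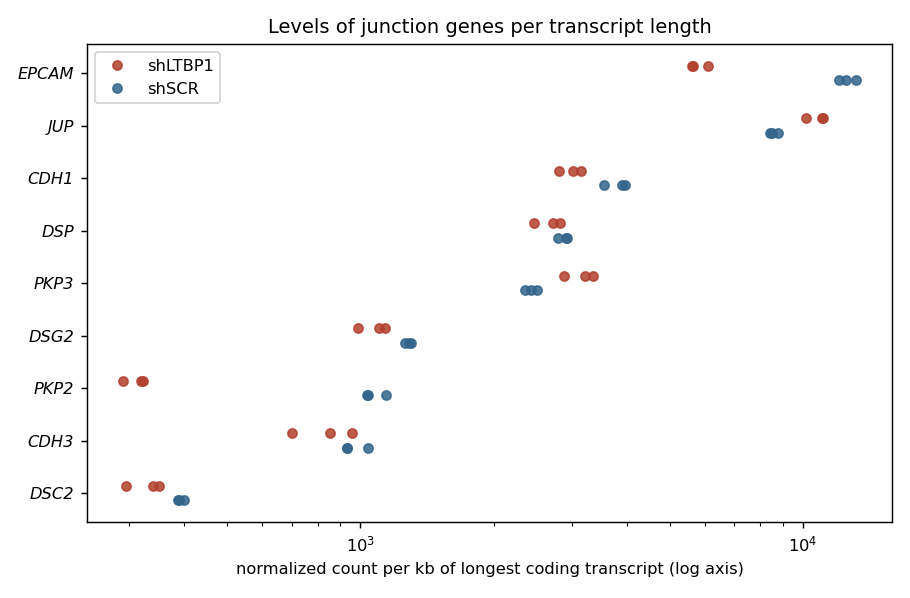
Normalized count per kilobase of the longest coding transcript (log axis) in each library, shLTBP1 above shSCR for each gene, ordered by the shSCR mean. JUP is above EPCAM in shLTBP1 and below it in shSCR, and PKP2 shows the widest gap between the groups.

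The wider set of junction genes was read from 9 lists of partners, of which 72 of 101 genes were tested. Of these 18 rose, 27 fell and 27 did not pass, so 62.5% passed, beside 53.1% of all tested genes, and the median log2 fold change was -0.01. Among other cadherins only CDH8 and CDH24 of 18 genes had a mean of at least 10, and 9 were listed at 0 in all libraries. Both fell: CDH24 averaged 694 ± 26.9 in shLTBP1 and 868 ± 62.2 in shSCR (SD, n = 3 each), and CDH8 averaged 14.98 in shLTBP1 and 33.1 in shSCR, a call of the low-expressed CDH8 that was lost without any 1 of shSCR replicate 3, shLTBP1 replicate 1 or shLTBP1 replicate 3 (limma adjusted p = 0.0531 to 0.0635). Of 7 tested catenins and armadillo partners, 1 rose and 4 fell (median -0.22). CTNNA1, which encodes the alpha-catenin that couples the complex to actin, rose slightly: it read 16907, 16054 and 15648 in shLTBP1, against 14025, 14484 and 14833 in shSCR (log2 fold change 0.17, limma adjusted p = 0.0112); without shSCR replicate 1 it did not pass (limma adjusted p = 0.0545). CTNND1, the gene of the catenin that keeps cadherins at the membrane, fell by 0.22. The log2 ratio of CDH1 to CTNNA1 was -0.19, -0.23 and -0.02 in shLTBP1, against 0.46, 0.26 and 0.36 in shSCR (difference -0.51 ± 0.09 SE, exact two-sided permutation p = 0.1, the smallest possible).

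The nectins, immunoglobulin-like adhesion proteins that assemble adherens junctions beside the cadherins, were both higher and lower. All 6 tested genes of this list passed, 4 higher and 2 lower. NECTIN3 read 2325, 1881 and 2570 in shLTBP1, against 665, 637 and 571 in shSCR (log2 fold change 1.84 ± 0.11 SE, limma adjusted p = 7.75e-07), and NECTIN1 rose by 0.43. NECTIN2 and AFDN, the gene of the afadin that links nectins to actin, fell by 0.19 and 0.22. Of 14 tested linkers to actin and microtubules, 2 rose, 7 fell and 5 did not pass (median -0.10). EPB41L5, an adaptor protein gene on chromosome 2, was at -1.40 (-0.83 with its neighbours' median subtracted) and AJUBA, a LIM protein that binds alpha-catenin, at -1.26, while vinculin (VCL) fell by 0.53. KIFC3 and cortactin (CTTN) rose by 0.38 and 0.23; with the neighbours' median subtracted neither passed (limma adjusted p = 0.0598 and 0.535).

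Of 8 tested further desmosome genes, 2 rose, 1 fell and 5 did not pass (median 0.01). The plakins EVPL and PPL, relatives of DSP, were at -0.39 (limma adjusted p = 0.000449) and -0.03 (limma adjusted p = 0.634). KRT5, a keratin that desmosomes anchor in stratified epithelia, averaged 8112 ± 294 in shLTBP1 and 2239 ± 26.0 in shSCR (log2 fold change 1.86, limma adjusted p = 3.84e-09), and PNN rose by 0.23. Markers of squamous cells summed to between 8361 and 8851 in shLTBP1 and between 2628 and 2650 in shSCR, nearly all of it KRT5, while DSG3, DSC3 and TP63 stayed below 10 in every library. KRT1, a keratin of differentiated squamous cells on the same marker list, read 91.6, 144 and 107 in shLTBP1, against 10.9, 10.1 and 9.90 in shSCR (log2 fold change 3.32, limma adjusted p = 2.82e-06), while KRT10, KRT14 and DSG1 did not pass. The part of these markers in the junction results was not tested. Of 14 tested genes of cadherin shedding and traffic, 2 rose, 6 fell and 6 did not pass (median 0.00). ADAM10, the main protease that sheds CDH1, was at 0.00 (limma adjusted p = 0.967). ADAM17 and EXOC3 fell by 0.58 and 0.98 on the log2 scale, and lie in regions of chromosomes 2 and 5 where neighbours were lower, and were at -0.07 and 0.06 with those subtracted. NCSTN and RNF43 rose by 0.39 and 0.37.

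Of 9 repressors of CDH1, 4 were tested, and of these TCF3 rose by 0.28 (0.054 with its neighbours' median subtracted, limma adjusted p = 0.466), KLF8 fell by 0.79, and SNAI1 and TCF4 did not pass (limma adjusted p = 0.937 and 0.166); ZEB1, ZEB2, SNAI2, TWIST1 and TWIST2 were below the minimum mean. Of 11 tested epithelial transcription and splicing factors, 5 rose and 3 fell. ELF3 and KLF4 were at 0.93 and 0.84, and ESRP2 and GRHL1 at -0.41 and -0.40. With the neighbours of chromosome 2 subtracted, GRHL1 was at 0.14 and passed as higher (limma adjusted p = 0.0417).

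**Figure D5:**
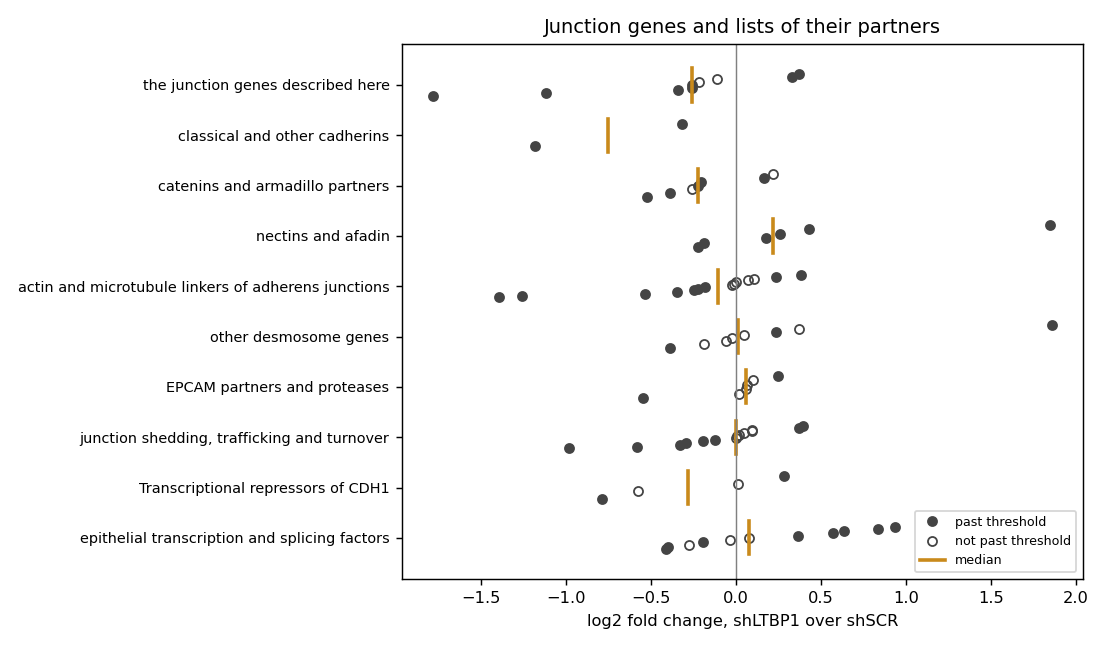
Log2 fold change (shLTBP1 over shSCR) of each tested gene in the junction set and in the 9 partner lists; filled circles passed a limma adjusted p of 0.05, and bars mark list medians. The junction genes have a median of -0.26, and the largest rises are NECTIN3 among nectins and KRT5 among other desmosome genes.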

How the data were processed

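RNA-seq libraries of MKN28 cells, 3 shLTBP1 and 3 shSCR, were made with a directional MGI kit per the labels' protocols, and titles gave the groups and replicate numbers. The submitters' processing notes name hg38, STAR 2.7.3a, FastQC 0.10.1, RSEM 1.3.1 and DESeq2 (no version); annotation, filters and strand setting were not found. Values are the authors' deposited signal, that is, gene counts they normalized with DESeq2. Taking the commonest value near 1 as 1 read, 35.6% to 37.2% of low values came out whole (within 0.1), too few to recover reads, so depth is unknown and a count model was not fitted.

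Genes with a mean of 10 or more entered limma 3.58.1 (R 4.3.3) on log2(value + 1), with group as the only term and a mean-dependent variance trend; two-sided p-values were Benjamini-Hochberg adjusted over all 12789, at 0.05. The pseudocount understates changes of low genes. Of 8 ratios planned, 7 were compared within libraries by exact permutation (adjusted p of 0.14 where the exact p was 0.1, and of 0.7 for CDH1 to CDH3 and 1 for DSG2 to DSC2). Not every ratio and gene under the naming rule is reported here. Positions and lengths are from GENCODE 29, which held 19872 of the 19960 identifiers. The neighbour correction subtracts, in each library, the median of the 25 nearest tested genes on each side. Alternatives covered pseudocount, filter, scaling, moderation, replicate block, left-out libraries and neighbours.

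The members and lists were chosen with earlier results of these data known. Named are LTBP1, the 10 genes, genes in ratios or bordering a member, and up to 2 passing genes per partner list that rose most and 2 that fell most. CTNND1, VCL, PKP1, DSG1, KRT1, PPL, CLDN7, ADAM10, SNAI1, TCF4, the repressors below the minimum and marker genes fall outside this rule and were named after their values were seen.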

Additional observations from a re-analysis of the deposited data

How the results depend on the processing

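PKP2, EPCAM, CDH1 and PKP3 kept their direction and their call under all 19 alternatives each, with log2 fold changes of -1.84 to -1.74, -1.16 to -0.55, -0.39 to -0.29 and 0.16 to 0.43. The number of junction genes past the threshold ran from 4 to 8, and that of all genes from 5828 to 6805. After subtraction of the 25-a-side neighbour median, 4 of the 9 tested junction genes passed, 1 higher and 3 lower, beside 48.8% of all genes tested under that setting: JUP (0.084, limma adjusted p = 0.178), DSG2 (-0.13, 0.0582) and DSC2 (-0.12, 0.0868) did not. With 10 neighbours, chosen after the data were seen, 1 passed as higher, and JUP (0.12) and DSC2 (-0.16) did not pass. With keratin genes left out of the neighbours, also chosen later, 3 passed as lower, and DSG2 (-0.13) and DSC2 (-0.12) did not. Of the partner genes named, PKP4, EXOC3 and GRHL1 turned to 0.027, 0.061 and 0.14 with 25 neighbours, with or without keratin genes, and PKP4, GRHL1 and TCF3 to 0.081, 0.047 and -0.10 with 10; the causes were not tested. Leaving out 1 library gave log2 fold changes of -0.15 to -0.054 for DSP and -0.32 to -0.10 for CDH3; DSP passed without shLTBP1 replicate 1 and CDH3 without shLTBP1 replicate 2. It gave differences of -0.25 to 0.026 for the CDH1 to CDH3 ratio and -0.016 to 0.029 for the DSG2 to DSC2 ratio. Same-numbered libraries showed little shared deviation (correlations -0.009, 0.058 and -0.001 across genes), as did differently numbered ones (-0.04 to 0.045). These values show no clear pairing but cannot tell how the libraries were prepared. With the replicate number as a block CDH3 passed (-0.22, limma adjusted p = 0.0398) and 6755 genes passed in all. For the ratios, pairing leaves the differences as they are by construction (-2.15 for PKP2 to PKP3), and 3 pairs cannot give p below 0.25. The sequencing depth is unknown, so counting error cannot be separated from other spread.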
